A study of Mus musculus with 25 samples.

Results

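To define how macrophages next to remodeled lung tissue differ from macrophages inside it, the CD68 segments of 4 peri-injured regions (6, 9, 10 and 12) were compared with the CD68 segments of 5 injured regions (4, 5, 7, 8 and 11). These 9 segments were chosen by their sample labels, out of 24 segments from 12 regions. All 9 came from the lung of 1 male SP-C I73T mutant mouse, 14 days after tamoxifen. The labels give 1 oral gavage of 175 mg/kg in corn oil, which removes a neomycin cassette and raises expression of the mutant surfactant protein C, whereas the methods describe repeated gavages at a lower dose, and a tamoxifen-controlled Flp recombinase expressed from the Rosa26 locus. For reference, 3 healthy regions (1, 3 and 13) came from 1 control mouse with the same mutant allele, gavaged with oil and labelled untreated, day 0. Regions were picked by histopathology, from the degree of inflammation, epithelial thickening and remodeling. Regions 6 and 10 lay close to the injury and regions 9 and 12 farther away. The study treats regions of a class as technical replicates of 1 mouse, so every p-value over regions below is too small for any statement about animals.

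Surfactant protein C is made by alveolar type II cells, and the I73T variant is misrouted within them, which leads to inflammation and then to fibrosis. Resident alveolar macrophages, which clear surfactant and debris, and macrophages derived from recruited monocytes both carry the lysosomal protein CD68, and the leukocyte antigen CD45 separates them from other CD68-bearing cells. The GeoMx instrument hybridizes barcoded probes to a section, illuminates only the area positive for a stain and collects the barcodes released there. A CD68 segment is therefore the pooled CD45+CD68+ area of a region, not a set of single cells, and fewer cells of a type cannot be told apart from less RNA per cell. The non-immune segment of the same region is the DNA-positive area without CD45. Probes are given by identifier without gene symbols in the files used here, so the macrophage identity of the segments was not checked against marker genes, and results are described by probe.

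The peri-injured CD68 segments were smaller and had a lower share of background counts than the injured ones. Background was estimated from the 2018 probes that were least abundant in the non-immune segments, by scaling their mean count in a CD68 segment to all 20175 probes. In peri-injured regions 6, 9, 10 and 12 it took 27.4%, 34.7%, 27.4% and 28.2% of the counts, in that order. In injured regions 4, 5, 7, 8 and 11 it took 40.2%, 40.4%, 37.0%, 39.6% and 38.9%. The exact Poisson 95% interval was widest in region 9, from 32.2% to 37.2%, and such intervals cover counting error only. The classes did not overlap, although region 9 came within a few percentage points of the injured segments. Peri-injured segments averaged 29.4% ± 3.51 (SD, n = 4) and injured ones 39.2% ± 1.37 (SD, n = 5), with a two-sided exact permutation p of 0.0159 over regions of 1 mouse and an adjusted p of 0.0265 over 5 measures. This p is the smallest that 4 against 5 segments allow. The 3 healthy segments averaged 33.0% ± 4.37 (SD), and only this mean lay between both classes. Healthy regions 1 and 13, at 31.1% and 29.8%, were in the peri-injured range. Healthy region 3, at 37.9%, was in the injured range.

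The counts of peri-injured segments were also spread over fewer probes. At an equal depth of 21955 counts, the total of the shallowest segment, 10472 to 11054 probes had a count in peri-injured segments and 11682 to 12072 in injured segments. Again the classes did not overlap (exact permutation test over regions of 1 mouse, p = 0.0159, adjusted p = 0.0265), and the healthy segments, at 11384 to 11703 probes, lay mostly between them. The area of the segments, in a unit that the worksheet leaves unnamed, averaged 5793 ± 2795 (SD, n = 4) for peri-injured regions and 13008 ± 4745 (SD, n = 5) for injured ones, without overlap (exact permutation test, p = 0.0159, adjusted p = 0.0265). Counts per 1000 units of area were higher in peri-injured segments, at 9613 ± 2056 (SD, n = 4) against 6761 ± 1059 (SD, n = 5), but the adjusted p was 0.0595 (exact permutation test, p = 0.0476). Region 9 was the exception among the peri-injured segments, with 6932 counts per 1000 units, inside the injured range of 5718 to 8237. The total count ranged from 21955 to 93567 in peri-injured and from 71786 to 119493 in injured segments, which overlapped (exact permutation test, p = 0.238). A median probe had between 1 and 5 counts in these segments, so single probes of low abundance carry large counting error.

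**Figure D1:**
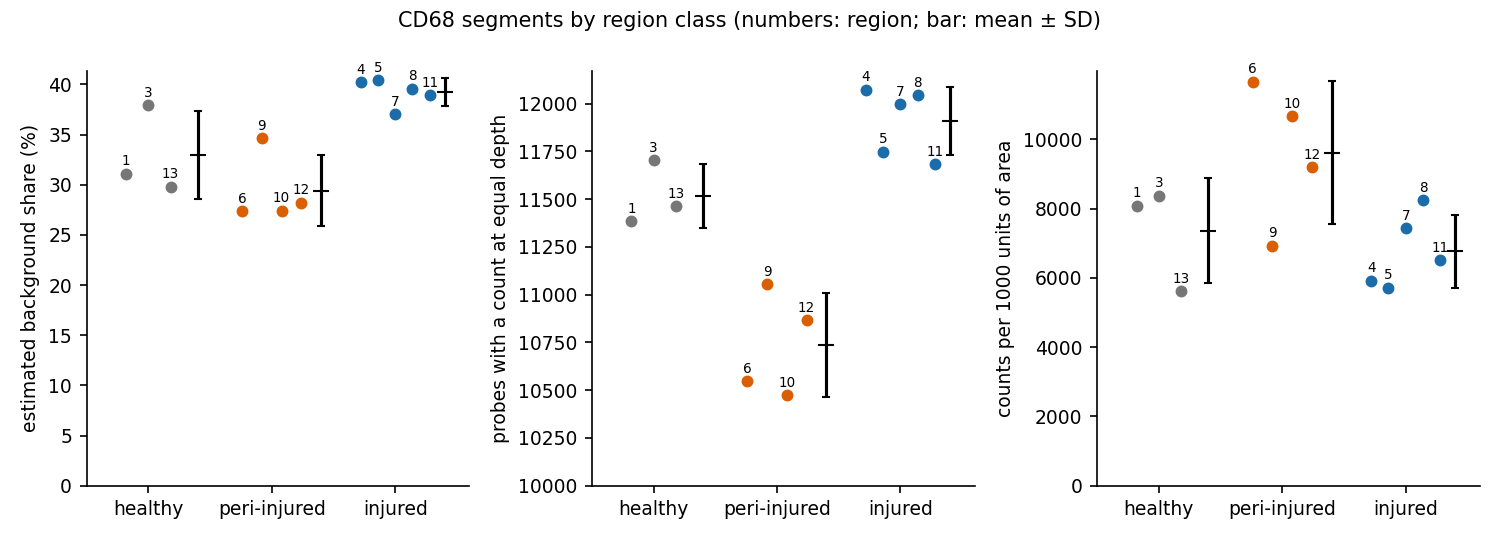
Estimated background share (%), number of probes with a count at a depth of 21955 counts (axis starts at 10000) and counts per 1000 units of area in the CD68 segments of the 3 region classes. Each point is a segment, labelled with its region, and the bars give mean ± SD; peri-injured and injured segments do not overlap in the left and the middle panel, while region 9 lies within the injured range in the right panel.

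More probes were called higher than lower in peri-injured CD68 segments, and the higher ones were mostly abundant probes. The test was edgeR's quasi-likelihood test on the 6000 probes that ranked highest by mean share in the 12 CD68 segments, after normalization to the 75th percentile. At a Benjamini-Hochberg adjusted p under 0.05 this called 4.42% of the 6000 probes, namely 184 higher (3.07%) and 81 lower (1.35%) in peri-injured segments. The median log2 fold change over all 6000 probes was -0.17. By absence of overlap alone the balance was reversed, with 146 of the 6000 higher and 256 lower in all peri-injured segments. The excess of higher calls thus describes the probes that passed the threshold in this fit, not all probes. Among the higher probes, 182 of 184 changed by at least 1 on the log2 scale and 26 by at least 2. Among the lower probes, 73 of 81 changed by at least 1 and 33 by at least 2, with a larger median standard error (0.53 against 0.38). These are tests over regions of 1 mouse, with p-values too small for animals.

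The direction of the calls followed abundance. Of the 1200 most abundant probes, with a median of 9.22 counts per segment, 159 were called higher and 33 lower, and the median log2 fold change was 0.35. In the next 1200 probes, 16 were called in each direction, and the median was -0.09. In the 1200 least abundant of the kept probes, with a median of 3.67 counts per segment, edgeR called 0 higher and 11 lower, with a median log2 fold change of -0.41. In this group 15 probes were higher at an unadjusted p under 0.05, and limma also called 0 higher. DESeq2 called 0 higher too. Its default filter on low mean counts can leave such probes without an adjusted p, so its 0 is no separate evidence. Among the 100 most abundant probes 27 were called higher and 16 lower, from -1.71 to 2.69 on the log2 scale. The pattern depended on the probes used for scaling. With the low-count filter of edgeR, 1004 probes were scaled among themselves. Of these, 109 were called higher and 166 lower, with a median log2 fold change of -0.02.

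The background probes themselves were lower in peri-injured segments. On the normalized scale of the test, the summed counts of the 2018 background probes fell by 0.79 on the log2 scale from injured to peri-injured segments. The 16 lower probes among the 100 most abundant had a median log2 fold change of -0.99, and the one that changed least was at -0.87. Of all 81 lower probes, 37 lay within 2 standard errors of the change of the background probes, against 67.3% of the 6000 probes. When the segments were scaled to these background probes instead of the 75th percentile, a scaling added after the data were seen, 184 of the 184 higher probes were called higher and 9 of the 81 lower probes were called lower. That scaling shifts all probes up alike, raising the median of the 6000 from -0.17 to 0.56 with 1039 called higher and 9 lower, so the kept higher and the lost lower calls follow from the shift, and a direction is relative to the scaling chosen. With the background mean subtracted from every probe before 75th-percentile scaling, also added later, limma called 127 higher and 76 lower, against 96 and 67 without subtraction. The split of the calls moved with other choices as well, to 209 higher and 62 lower with TMM normalization, 164 and 40 with DESeq2, 109 and 166 under the low-count filter of edgeR, which left 1004 probes, and 34 and 46 after thinning to equal depth, which put the median of all probes at -0.41. What part of the lower calls is background was not tested beyond these values.

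**Figure D2:**
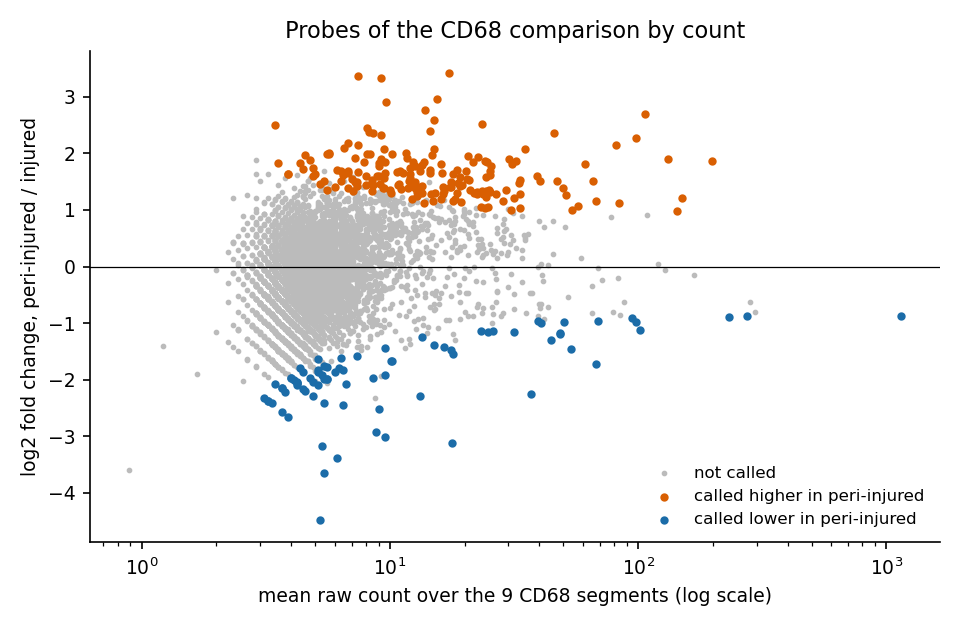
Log2 fold change of peri-injured over injured CD68 segments against the mean raw count over the 9 segments (log axis) for the 6000 probes tested. Colored points are the 184 probes called higher and the 81 called lower. Most higher calls lie among the abundant probes, and the lower calls among the 100 most abundant probes range from -1.71 to -0.87.

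The higher probes were not the product of a single segment in most cases. In 15 of the 184, more than 50% of the normalized counts of the 4 peri-injured segments lay in 1 segment, and in the remaining 169 they did not. In 94 of the 184 all 4 peri-injured segments lay above all 5 injured segments, which 2.43% of the 6000 probes did (6.7% had no overlap in either direction). Relative to the injured mean, regions 6 and 10 were each higher for 181 of the 184, region 12 for 174 and region 9 for 150. The highest value fell in region 6 for 85 probes and in region 10 for 78, both close to the injury, against 14 for region 12 and 7 for region 9. This ordering is a description of probes that were selected on these same segments.

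RTS0064807 had the highest log2 fold change of the 21 higher probes that met the naming rule. Its normalized counts in peri-injured regions 6, 9, 10 and 12 were 217, 153, 201 and 124. The injured regions 4, 5, 7, 8 and 11 had 6.04, 32.6, 11.2, 10.1 and 71.7. Every peri-injured segment was above every injured segment, as the naming rule required. The injured segments themselves spread widely, with region 11 far above regions 4, 7 and 8. edgeR's quasi-likelihood test gave a log2 fold change of 2.69 ± 0.38 (SE) and an adjusted p of 9.48e-06 over regions of 1 mouse. The probe ranked 15 by abundance, with 76 raw counts in the shallowest segment, region 9. In the healthy segments it stood at 34.9 ± 7.39 (SD, n = 3), near the injured mean of 26.3 ± 27.4 (SD, n = 5) and far below the peri-injured mean of 174 ± 42.8 (SD, n = 4).

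RTS0079428 was the next of the higher probes. Its normalized counts in regions 6, 9, 10 and 12 were 30.9, 24.2, 20.8 and 30.2. Those in injured regions 4, 5, 7, 8 and 11 were 5.03, 6.64, 0, 1.01 and 7.55. Regions 7 and 8, with 0 and 1 raw counts, held almost none of it, and here the distal regions 9 and 12 were not lower than the proximal ones as a pair. The same test gave a log2 fold change of 2.59 ± 0.41 (SE) with an adjusted p of 5.78e-05 from edgeR, again over regions of 1 mouse. The healthy mean of 9.02 ± 1.83 (SD, n = 3) was above each of the 5 injured segments. Healthy region 13 alone, with 5 raw counts, had the same 7.55 as injured region 11.

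The lower probes had few counts where they were low. Summed over the 4 peri-injured segments their median was 8 raw counts, against 47 over the 5 injured segments, and 10 of the 81 had 3 counts or fewer in the peri-injured segments together. In 59 of the 81 the peri-injured segments all lay below the injured ones, which 4.27% of the 6000 probes did. In 7 of the 81, more than 50% of the injured counts lay in 1 segment. Among the injured regions the highest value fell most often in regions 8 (26 probes) and 4 (25), and least often in region 11 (6). In the 9 fits that each omitted a different region, 54 of the higher and 10 of the lower probes were called every time.

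RTS0076055 had the lowest log2 fold change of the 7 lower probes that met the naming rule. Its normalized counts in regions 6, 9, 10 and 12 were 12.1, 6.04, 8.72 and 7.55. Across injured regions 4, 5, 7, 8 and 11 they were 18.1, 98.4, 20.7, 44.3 and 33.2. The classes did not overlap, as the naming rule required, but regions 4 and 7 were close to region 6, and region 5 was the highest. By edgeR's quasi-likelihood test over regions of 1 mouse the log2 fold change was -2.25 ± 0.41 (SE), with an adjusted p of 0.000568, and without region 5 it was -1.66. With the segments scaled to the background probes it was -1.47 (adjusted p = 0.00916, same test). The healthy segments, at 10.0 ± 6.49 (SD, n = 3), had about the peri-injured level of 8.60 ± 2.57 (SD, n = 4).

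RTS0068354 was the most even of the named probes within the injured class. In injured regions 4, 5, 7, 8 and 11 its normalized counts were 14.1, 11.5, 12.1, 14.1 and 9.06. In peri-injured regions 6, 9, 10 and 12 they were 2.68, 4.03, 4.03 and 1.51. These are 1 to 6 raw counts per peri-injured segment, so the lower level is poorly resolved. By edgeR's quasi-likelihood test over regions of 1 mouse the log2 fold change was -1.91 ± 0.43 (SE), with an adjusted p of 0.00516. The call was lost without a filter on low counts (adjusted p = 0.0696), after thinning (adjusted p = 0.324) and with scaling to the background probes (-1.17, adjusted p = 0.0546).

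**Figure D3:**
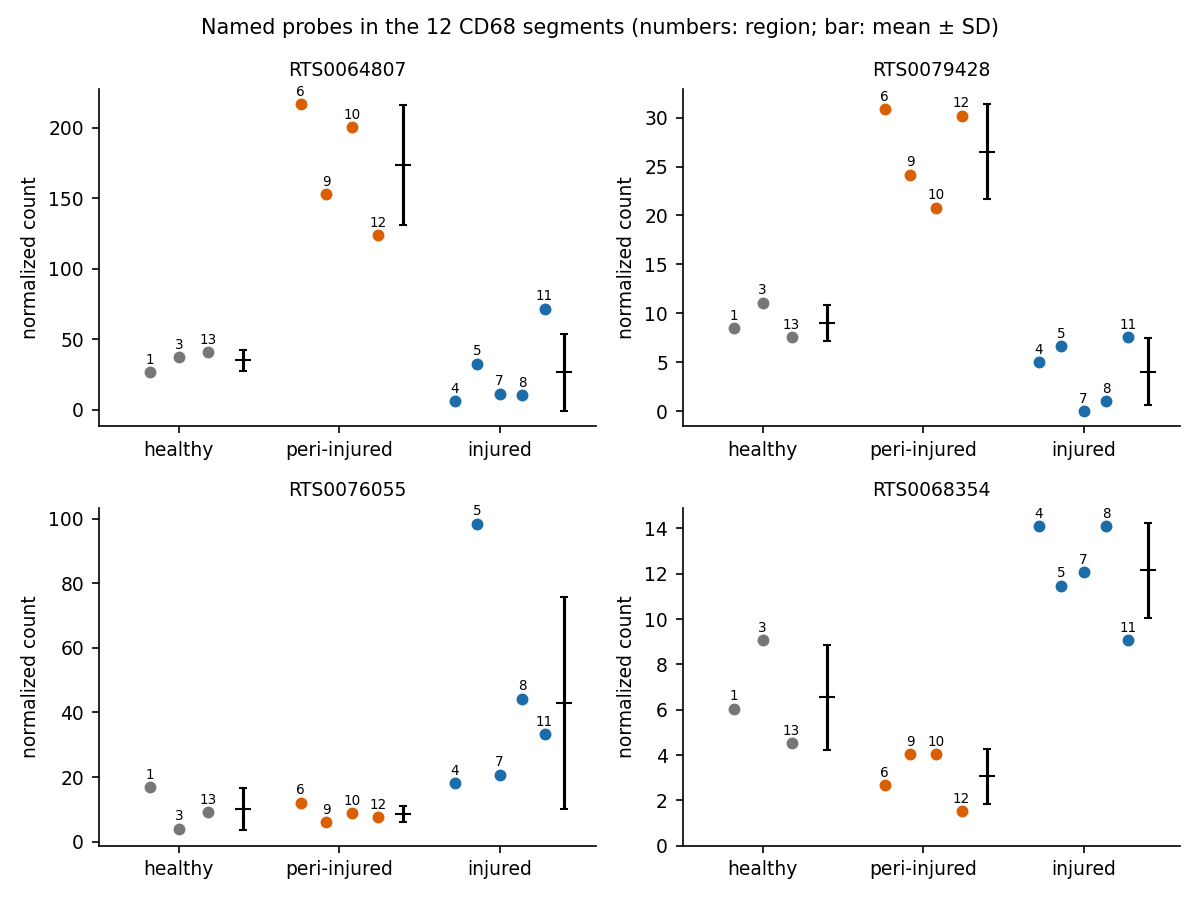
Normalized counts of the 4 named probes in the 12 CD68 segments by region class, on linear axes. Each point is a segment, labelled with its region, and the bars give mean ± SD. The peri-injured and the injured segments do not overlap for any of the 4 probes, which the naming rule required. Region 5 is the highest segment for RTS0076055.

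Summed, the called probes placed the injured regions on a range rather than at a single level. In peri-injured regions 6, 9, 10 and 12 the 184 higher probes held 10.1%, 8.03%, 11.1% and 8.97% of all counts. In injured regions 4, 5, 7, 8 and 11 they held 1.75%, 3.40%, 2.16%, 1.72% and 3.76%. Every injured region thus held less than the healthy segments (3.95% to 4.34%), with regions 5 and 11 closest to them. The 81 lower probes held 2.67% to 3.08% in peri-injured, 4.11% to 5.27% in injured and 3.56% to 4.38% in healthy segments. The separation of the CD68 classes in these sums follows from the choice of the probes and is no test.

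The non-immune segments of the same regions were separate libraries that played no part in choosing the probes. There, the 184 higher probes held 6.51%, 4.57%, 7.01% and 4.80% of the counts in regions 6, 9, 10 and 12. In injured regions 4, 5, 7, 8 and 11 they held 1.75%, 4.04%, 2.55%, 1.65% and 3.15%. The classes did not overlap there either, regions 5 and 11 were again the highest of the injured regions, and regions 6 and 10 the highest of all. The 81 lower probes held 3.08% to 3.66% in peri-injured and 4.06% to 4.89% in injured non-immune segments.

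**Figure D4:**
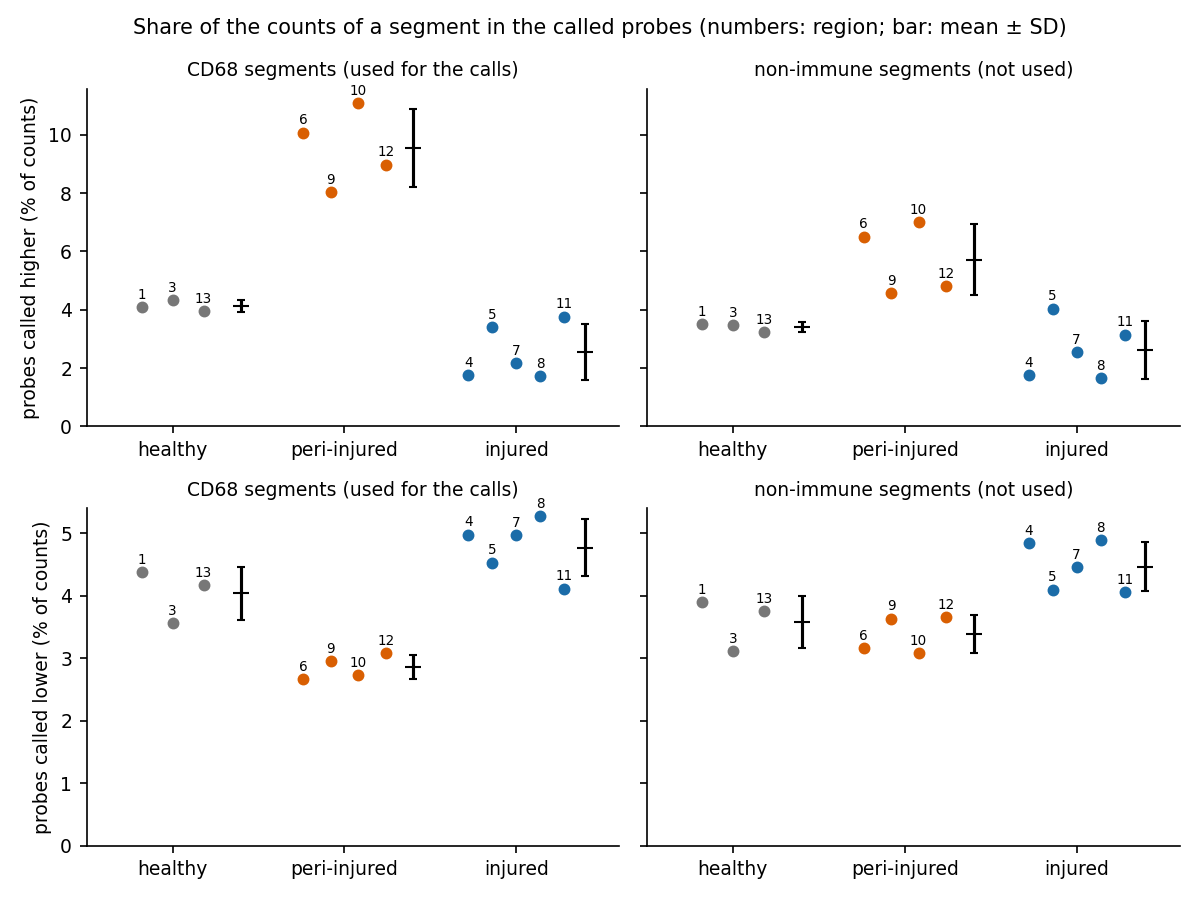
Percentage of the counts of a segment that fell on the 184 probes called higher (top) and the 81 called lower (bottom) in peri-injured CD68 segments. The left panels show the CD68 segments, which chose the probes, and the right panels the non-immune segments of the same regions; points are segments labelled by region, bars give mean ± SD, and regions 5 and 11 are the highest injured regions in both upper panels.

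Probe by probe, the called probes were often called in the same direction in the non-immune segments. On the same 6000 probes, edgeR's quasi-likelihood test called 29.0% between peri-injured and injured non-immune segments, with 9.85% higher and 19.1% lower in peri-injured regions. Of the 184 probes higher in CD68 segments, 101 (54.9%) were called higher there and 11 (5.98%) lower. Of the 81 lower probes, 52 (64.2%) were called lower there and 1 was called higher. The shares over all 6000 probes were not matched for abundance, and 159 of the 184 higher probes were among the 1200 most abundant. With TMM normalization the background was 14.6% higher and 6.32% lower, and the counts were 115 of 184 higher and 23 of 81 lower, so the balance over all probes turned with the scaling. For the non-immune segments, background was estimated from another set, the probes least abundant in the CD68 segments. The summed counts of that set fell by 0.50 on the log2 scale. The background share of the non-immune segments was also lower in peri-injured regions, at 31.9% ± 1.57 (SD, n = 4) against 39.1% ± 1.42 (SD, n = 5) (exact permutation test over regions of 1 mouse, p = 0.0159). How far background accounts for the shared lower calls was not tested. Across the 6000 probes, the log2 fold changes of the compartments had a Pearson's r of 0.51, as a description across probes that share regions and differ in depth.

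The difference between the compartments was tested directly, with region as a block over all 24 segments. By edgeR's quasi-likelihood test 1.28% of the 6000 probes changed differently at an adjusted p under 0.05, with a more positive change in CD68 segments for 70 (1.17%) and a more negative one for 7 (0.117%). The 70 probes had a median log2 fold change of 1.53 in CD68 segments and -0.48 in non-immune segments. Of the 184 higher probes, 48 were among them, and of the 81 lower probes 3 were among the 7, but these probes were chosen for large changes in CD68 segments, which favors such calls. After every segment was thinned to 21955 counts, edgeR called 0 probes, with 213 of 6000 at an unadjusted p under 0.05. Regions are of 1 mouse here too, and the p-values are too small for animals.

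The named probes showed both patterns. RTS0064807 had a log2 fold change of 1.11 in non-immune segments (standard error 0.20, adjusted p = 0.000309, edgeR's quasi-likelihood test over regions of 1 mouse). Its change was larger in CD68 segments by 1.79 on the log2 scale (standard error 0.31, adjusted p = 0.000199, same tool). It took 248 to 346 of every 100000 counts in peri-injured CD68 segments and 18.4 to 24.3 in the non-immune segments of these regions, so that its signal lay mainly in the CD68 compartment. RTS0076055 was called lower in both compartments, with a log2 fold change of -2.45 in non-immune segments (standard error 0.42, adjusted p = 0.000177) and a difference of 0.15 (standard error 0.35, adjusted p = 0.979, edgeR's quasi-likelihood test). Region 5 was its highest region in both, with 136 of every 100000 counts in the CD68 and 147 in the non-immune segment. For RTS0079428 and RTS0068354 the non-immune log2 fold changes were 1.57 and -0.78, and the differences between the compartments, 1.12 (standard error 0.41) and -1.13 (standard error 0.45), did not pass the adjusted threshold.

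**Figure D5:**
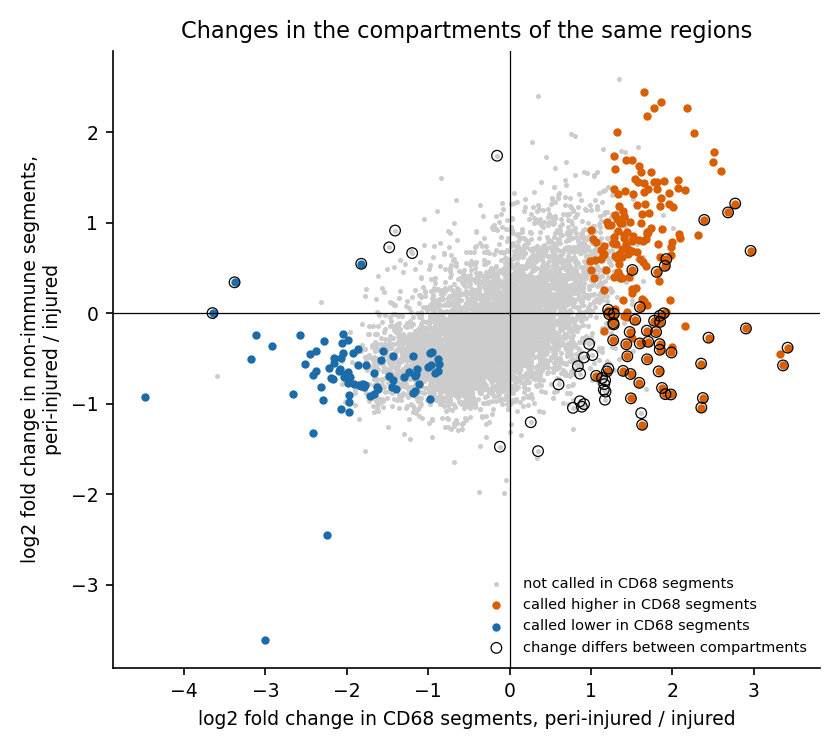
Log2 fold change of peri-injured over injured regions in the non-immune segments against that in the CD68 segments for the 6000 probes. Orange and blue points were called higher and lower in CD68 segments, and circles mark the 77 probes whose change differed between the compartments; most circles lie at positive CD68 changes and near or below 0 in the non-immune segments.

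In the healthy lung, the level of the higher probes lay closer to that of injured than of peri-injured regions. The median of their mean normalized counts was 18.7 in peri-injured, 5.96 in injured and 7.36 in healthy CD68 segments. The healthy mean was nearer to the injured than to the peri-injured mean for 135 of the 184 (73.4%). This held for 45 of the 81 lower probes (55.6%) and 52.7% of all 6000 probes. For the higher probes, the healthy mean lay above both class means for 5 and below both for 52. For the lower probes the medians were 1.85, 8.39 and 4.39, and the healthy mean lay between the class means for 69 of the 81. That was so for 127 of the 184 higher probes and for 2183 of all 6000. Both sets were chosen for a gap between these same class means, so where the healthy mean falls is a description and no test. The healthy segments come from the other mouse, so region class and mouse cannot be told apart in these values.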

How the data were processed

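The deposited files hold raw counts per probe of the Mouse Whole Transcriptome Atlas. The authors made them with the GeoMx NGS Pipeline (version 2.3.4 per the count files), which aligns reads to probe barcodes and removes duplicates by molecular identifier; an unlisted probe was read as 0. The labels name build mm10. Areas came from the authors' deposited worksheet. The counts are neither filtered nor normalized.

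Samples were grouped by their labels. The 6000 probes with the highest mean share over the 12 CD68 segments were normalized to the 75th percentile and tested with edgeR 4.0.16 (R 4.3.3) in 1 fit with a term per region class; the limit of quantitation that the study filtered on was not computed. The standard error is the size of the log2 fold change divided by the square root of F. The compartment difference used region as a block, since a region number marks the shared position of both its segments (correlation of their deviations -0.00432 to 0.143, median 0.0658). Exact permutation tests were two-sided, with Benjamini-Hochberg adjustment over 5 measures. For naming, the 2 largest changes in each direction were taken among called probes without overlap between classes, called with each region left out, and with at least 10 raw counts in every segment of the higher class. The alternatives tried were TMM, DESeq2 1.42.0, limma 3.58.1 on log2(value + 1), other filters, thinning and leaving out regions. The edgeR and limma fits were tested on simulated data. Members, probes and measures were chosen with earlier results of these data known.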

Additional observations from a re-analysis of the deposited data

Results flagged for a closer look

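Among 22 combinations of a measure or named probe and a region class, 3 values stood apart from the other segments of their class by Dixon's criterion, where chance marks about 1 in 20. The background share of peri-injured region 9, 34.7%, was one of them; without region 9 the difference between the classes was -11.6 percentage points. Injured region 5 had the other pair, a total of 119493 counts and 19702 probes with a count.

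The change of RTS0064807 from injured to peri-injured regions differed between the compartments by 1.79 on the log2 scale (edgeR's quasi-likelihood test with region as a block, adjusted p = 0.000199), and it was higher in peri-injured regions in both. In all, the change differed for 77 of the 6000 probes in the same test. Regions are of 1 mouse.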

How the results depend on the processing

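The number of CD68 calls was 265 and changed by more than 1.5 times without a filter on low counts (473), after thinning (80), with limma (163) and with scaling to the background probes (1048). With 1 region left out it ranged from 100 to 309, with counts of 100, 127, 150, 153 and 161 on omitting regions 6, 10, 8, 4 and 7, respectively. Without the shallow regions 9 and 12 together, chosen after seeing the data, 287 were called, 203 of them among the 265. The non-immune count of 1738 became 860 with DESeq2 and 168 after thinning, and with 1 region left out it ranged from 955 (without region 6) to 2046, with 1150 without region 10. The count of 77 for the compartment difference became 52 with no replicate block and 0 after thinning by edgeR (213 at an unadjusted p under 0.05), and ranged from 46 (without region 6) to 94 with 1 region left out, with 50 without region 10. The cause of these changes was not tested.

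The segment measures kept their direction in every alternative run. As a difference of medians, peri-injured minus injured, the area was -6706, the probes at equal depth -1288 and the background share -11.8 percentage points, each with an adjusted p of 0.0595 (exact permutation test); the background share from the 1009 least abundant probes gave -7.73 percentage points (adjusted p = 0.0529). With 1 region left out, the differences ranged from -8288 to -5243 for area, -1280 to -1086 for probes at equal depth, -11.6 to -9.14 percentage points for background share and 2168 to 3745 for counts per 1000 units of area. Without region 6, 10 or 12 the first 3 of these missed the adjusted threshold (0.0595), where 3 against 5 segments cannot give an exact permutation p below 0.0357; without region 9, counts per area passed it (0.0446). After thinning, the CD68 calls went from 184 to 34 higher and from 81 to 46 lower.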

Other observations

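In the healthy lung of the other mouse, the called probes more often had a higher share in the CD68 segments than all probes did. This is a description without a test. The healthy CD68 segments were not part of the contrast. They did help to choose the 6000 probes and to estimate the spread, and without them 230 probes were called instead of 265. The share of a probe in the pooled CD68 counts was above its share in the pooled non-immune counts for 137 of the 184 higher probes (74.5%), 60 of the 81 lower probes (74.1%) and 63.3% of all 6000 probes. The median log2 ratio of these shares was 0.32 for the higher probes, 0.21 for the lower and 0.20 for all, so by this measure the lower probes hardly differed from all. RTS0064807 had a ratio of 2.11 on the log2 scale, from 86 CD68 and 78 non-immune counts.

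Between the regions close to the injury and those farther away, 162 of the 184 higher probes (88.0%) had a higher mean normalized count in regions 6 and 10 than in regions 9 and 12, against 64.3% of all 6000 probes and 48 of the 81 lower probes. The called probes were selected on these same segments, whereas the 6000 were not selected by this contrast, so the shares are a description and no test. Regions 9 and 12 were also the shallowest segments, and the part of depth in this was not tested.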
